A study of Mus musculus with 6 samples.

Results

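Chemokines, a set of inflammatory interleukins and colony-stimulating factors, and the chemokine receptors were examined in mouse mesenchymal stem cell clones with and without Dicer, the enzyme that makes mature microRNAs from their hairpin precursors. Genes were taken by symbol from the array annotation: every Ccl, Cxcl, Ccr or Cxcr gene with a plain number except Cxcl12, together with Cx3cl1, Il6, Il11, Lif, Il1a, Il1b, Il1rl1, Il33, Csf2, Csf3 and Tnf. This gave 53 of 18997 measured genes, with 17 CC ligands, 11 CXC ligands, the CX3C ligand, 9 CC receptors, 6 CXC receptors and 9 interleukins and other cytokines. Ccl6, Ccl19 and Cxcl3 had only transcript clusters shared with other genes and were left out, and no cluster of Il1rl1 alone was listed in the annotation used. The symbols and not a measured value decide membership, but the gene families were picked with earlier results of these arrays known.

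RNA came from 6 untreated, undifferentiated cultures, 1 array per clone. All clones descend from hindlimb bone marrow of 1 mouse, aged 1 year, with floxed Dicer alleles, and all carry SV40 large T antigen, delivered by retrovirus. Clones 6 and 12 kept Dicer (labelled Dicer+/+, n = 2), while clones 6.8 and 6.9, derived from clone 6, and clones 12.2 and 12.4, derived from clone 12, had lost it (Dicer-/-, n = 4). The null clones had also received the virus Adeno-Cre-GFP, had been sorted by their GFP and had been cloned a second time, and no Dicer-carrying array went through those steps, so they cannot be told apart from Dicer loss. Each null clone is 1 clone on 1 array, and the siblings share a parental array. Values of the null clones are listed in the order 6.8, 6.9, 12.2, 12.4 unless clones are named. The array titled 6.9 carries a cell type label of clone 6.8, and the title was followed.

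Chemokines are small secreted proteins that guide migrating leukocytes along a gradient. They are grouped by the spacing of their first cysteines into CC, CXC and CX3C ligands, and act through G protein-coupled receptors found mainly on blood cells. Stromal cells of the marrow are a known source of several ligands, among them the neutrophil attractant Cxcl1, the monocyte attractants Ccl2 and Ccl7, and the stem cell retention factor Cxcl12. Many of the ligand genes lie in tight genomic clusters and are induced through NF-kB or interferon signalling, and interleukin 6, interleukin 11 and Lif signal through a shared receptor chain, Il6st.

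Promoter sequence was available from RefSeq (GRCm38.p6) for 38 of the 53 genes. The 4 printed here were chosen because Cxcl1 and its neighbour Cxcl2 carry the same NF-kB-like element but had different array patterns, because Cxcl10 carries an NF-kB-like and an interferon-type element, and because Ccl9 was higher in every null clone. Each line gives the 250 bases before the annotated start site, with matches in capitals.
Cxcl1 (chr5:90890995-90891244, plus strand): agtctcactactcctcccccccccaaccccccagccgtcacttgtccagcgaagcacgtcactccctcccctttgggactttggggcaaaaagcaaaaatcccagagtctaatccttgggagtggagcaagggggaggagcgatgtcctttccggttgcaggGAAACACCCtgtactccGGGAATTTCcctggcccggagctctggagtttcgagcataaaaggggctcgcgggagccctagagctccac
Cxcl2 (chr5:90903649-90903898, plus strand): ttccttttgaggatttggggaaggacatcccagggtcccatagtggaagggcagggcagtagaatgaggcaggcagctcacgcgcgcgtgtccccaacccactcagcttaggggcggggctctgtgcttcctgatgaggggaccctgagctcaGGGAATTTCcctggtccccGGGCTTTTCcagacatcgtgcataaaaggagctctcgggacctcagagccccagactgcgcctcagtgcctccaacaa
Cxcl10 (chr5:92348890-92349139, minus strand): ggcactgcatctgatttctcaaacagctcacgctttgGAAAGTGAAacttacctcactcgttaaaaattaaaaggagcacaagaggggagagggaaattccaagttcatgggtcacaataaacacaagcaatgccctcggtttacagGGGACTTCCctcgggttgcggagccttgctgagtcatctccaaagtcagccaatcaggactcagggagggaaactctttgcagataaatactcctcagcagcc
Ccl9 (chr11:83578637-83578886, minus strand): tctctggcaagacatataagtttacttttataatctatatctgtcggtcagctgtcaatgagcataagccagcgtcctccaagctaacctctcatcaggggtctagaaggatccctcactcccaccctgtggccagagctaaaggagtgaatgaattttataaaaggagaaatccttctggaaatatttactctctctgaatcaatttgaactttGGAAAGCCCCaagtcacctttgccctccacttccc
The NF-kB-like motif was searched as GGGNNTTCC or GGGNNTTTC, which can overlap each other, and the interferon-type motif, the core of the interferon-stimulated response element, as GAAANNGAA. Both were searched on either strand, over a window that also held 50 bases after the start, and the letters were chosen after array values were seen. Longer NF-kB-like forms, with a further base between GGG and TTCC, were not searched and are not counted. The Cxcl10 sequence holds such letters, gggaaattcc, which stand in lower case. The element GGGAATTTC starts 71 bases before the start site of Cxcl1 and 97 before that of Cxcl2. In Cxcl10, GGGACTTCC starts 103 bases before the start and GAAAGTGAA 213 before it. An NF-kB-like match was present in 31% of the 42 promoters of these genes and in 9.53% of all 32851 promoters in the table, and the interferon-type match in 19% and 8.56%. A match is a description of the letters and not evidence of binding.

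The RMA values are on a log2 scale, and the median over all genes lay between 3.62 and 3.75 on the 6 arrays. Of the 53 genes, 36 stayed under a log2 level of 4 on all arrays, or 67.9% against 47.7% of all genes, and 9 reached 6 on at least 1 array, or 17% against 35.1%. Levels of different genes come from different probes and are not ranked against each other here. Dicer1 itself had log2 levels of 4.48 and 4.83 in clones 6 and 12 and of 4.43 to 4.66 in the null clones. Its cluster does not isolate the deleted part and checks no label. Of 13 measured mesenchymal stromal markers Itgb1, Pdgfrb and Prrx1 had log2 levels over 8 on every array, while Thy1 and Lepr stayed near or below 3. In limma 0 of the 13 passed in either direction, where 0.59% of all genes did. At an unadjusted p under 0.05 there were 3, or 23.1% against 13.7% of all genes. These were Vcam1, at 3.58 and 3.98 in the parents and 5.81 to 8.01 in the null clones (change 3.16 ± 0.37, SE, adjusted p 0.0548 in limma), Cspg4 with a change of -1.43 and Mcam with -1.76. Each kept 1 sign in all 4 null clones, as did Nt5e with -0.88, and their part in the results below was not tested. Of the 13 haematopoietic and macrophage markers 10 were measured, and their summed log2 level was 29.6 and 30.7 in the parents and 28.5 to 31.3 in the null clones, with the highest sum in clone 12.2. Ptprc, the pan-leukocyte marker, stayed between 2.52 and 2.72, and the macrophage marker Adgre1 between 2.60 and 2.74.

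The first question was whether these genes differed with Dicer loss when each null clone was set against its own parent. None of the 53 passed an adjusted p of 0.05 in limma with the parental line as a block, in a fit over all 18997 genes that called 0.59% of them, 0.163% as higher and 0.426% as lower. At an unadjusted p under 0.05 there were 4, Ccl9, Il33, Ccl3 and Ccr10, which is 7.55% of the genes against 13.7% of all genes. The median change, null minus parent, was 0.05 over the 53 and -0.02 over all genes. A count of 0 in 53 genes is near that background.

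A CC ligand and an alarmin lay above both parents in all 4 null clones. Ccl9, a CC chemokine that attracts cells through Ccr1, had log2 levels of 2.90 and 2.99 in clones 6 and 12. It had 4.37 in clone 6.8, 3.87 in 6.9, 4.30 in 12.2 and 5.19 in 12.4. All 4 null arrays lay above both parents, with means of 2.94 ± 0.06 (SD, n = 2) and 4.43 ± 0.55 (SD, n = 4). The change of Ccl9 was 1.49 ± 0.32 (SE) and its adjusted p in limma was 0.150.

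Il33, a nuclear cytokine released by damaged stromal and epithelial cells, had log2 levels of 2.94 and 3.25 in clones 6 and 12. It had 5.75 in clone 6.8, 4.79 in 6.9, 4.30 in 12.2 and 4.30 in 12.4, so the groups did not overlap and the line 6 clones lay above the line 12 clones. The change of Il33 was 1.69 ± 0.41 (SE), with 2.33 in line 6 and 1.05 in line 12, and an adjusted p of 0.182 in limma. The difference between the lines for Il33, -1.28 ± 0.65 (SE) as line 12 minus line 6, had an adjusted p of 0.9997 in limma.

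Ccl3, a ligand of Ccr1 known from activated macrophages, had log2 levels of 2.77 and 2.69 in clones 6 and 12, then 3.69, 4.23, 5.47 and 3.61 in the null clones. Its change was 1.52 ± 0.57 (SE), with an adjusted p of 0.355 in limma. Cxcl1, which recruits neutrophils through Cxcr2, had 5.12 and 5.24 in clones 6 and 12, and 6.10, 6.98, 8.76 and 6.19 in the null clones. Its change was 1.83 ± 0.79 (SE), with an adjusted p of 0.422 in limma. For both genes all null arrays lay above both parents and clone 12.2 was the highest.

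Ccl9, Il33, Ccl3 and Cxcl1 were the 4 of 53 genes, or 7.55%, whose null arrays all lay above both parents, against 9.44% of all genes. Higher than the own parent in all 4 null clones were 8 of the 53, or 15.1% against 13.1% of all genes. The other 4 were Cxcl10, Cxcl2, Il1b and Cxcr5, and of these Cxcl10 reached a difference of 1 log2 unit in any clone. Lower in all 4 were 3 of the 53, or 5.66% against 18.9%. These 3 were the receptors Ccr10, Ccr1 and Cxcr6, and they were also the 3 whose null arrays all lay below both parents, where the share over all genes was 13.9%.

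**Figure D1:**
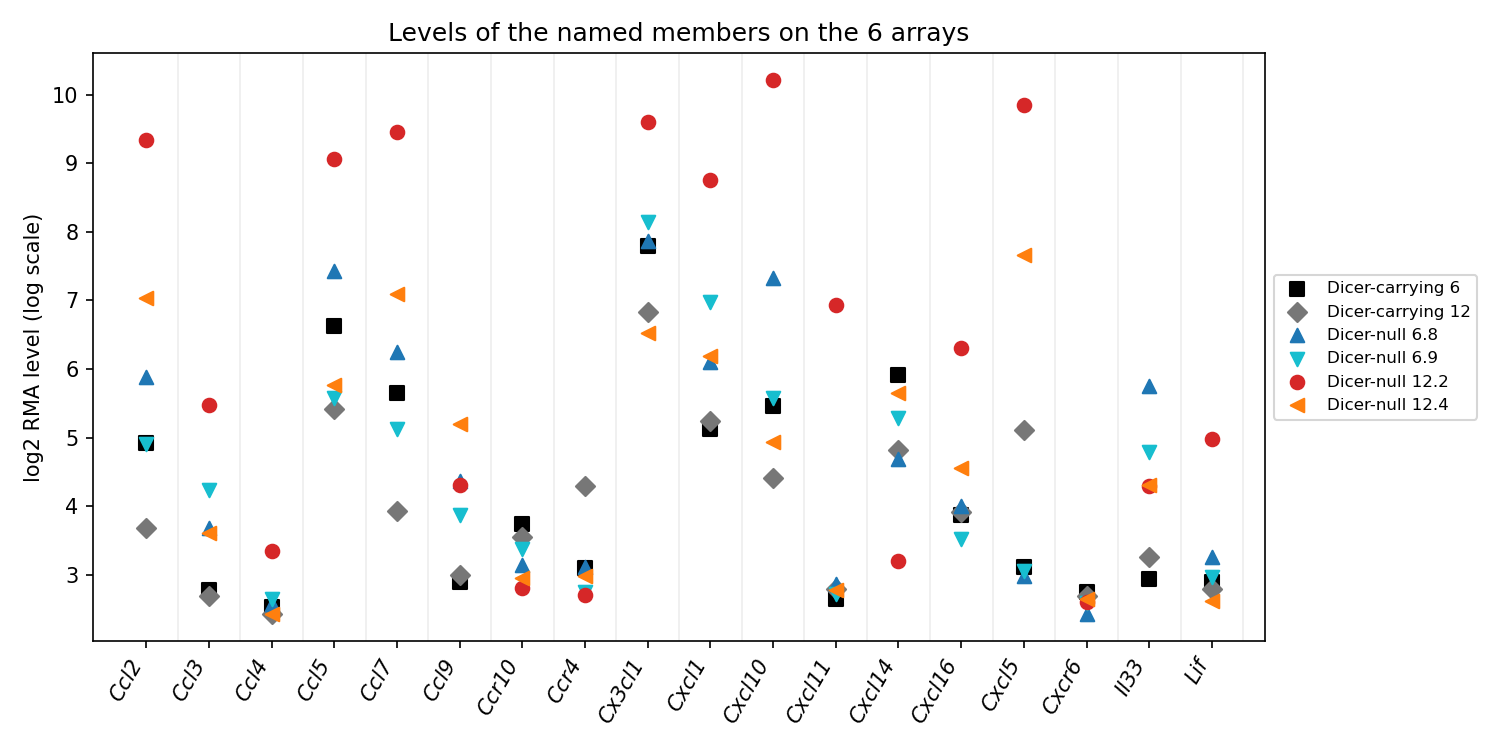
Log2 RMA level (vertical axis) of the 18 genes named by rule, with 1 point per array, coloured by clone (squares and diamonds are the Dicer-carrying parents). Clone 12.2 is the highest point for Cxcl10 at 10.2 and for Cxcl5 at 9.85, while Ccl9 and Il33 have all 4 null clones above both parents.

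The next question was how the 4 null clones differed among themselves. Levels above the own parent were most frequent in clone 12.2. Its level exceeded that of clone 12 by more than 1 log2 unit for 13 of the 53 genes, or 24.5%, where 5.14% of all genes did so. The count was 5, or 9.43% against 5.14%, in its sibling 12.4. It was 3 in clone 6.8, or 5.66% against 3.04%, and 3 in clone 6.9, or 5.66% against 4.58%. More than 1 log2 unit below the own parent were 2 genes in clone 6.8, or 3.77% against 4.14% of all genes, and 2 in clone 6.9, or 3.77% against 6.97%. There were 2 in clone 12.2, or 3.77% against 5.14%, and 1 in clone 12.4, or 1.89% against 3.52%. These are differences between single arrays and were not tested. In cultures measured in bulk, more cells expressing a gene and more RNA per cell cannot be told apart. The 13 genes were Ccl2, Ccl3, Ccl5, Ccl7, Ccl9, Cx3cl1, Cxcl1, Cxcl5, Cxcl10, Cxcl11, Cxcl16, Il33 and Lif. Il33 was the 1 gene past 1 log2 unit in all 4 clones. Clone 12.2 was the highest of the 6 arrays for 27 of the 53 genes, or 50.9%, against 21.4% of all genes, and 15 of these 27 stayed under a level of 4 on all arrays. The summed haematopoietic markers were also highest in clone 12.2, at 31.3 against 30.7 in clone 12. Of the 10 markers in that sum, 8 stayed under a level of 4 on all arrays. Cd14, expressed by macrophages, had a log2 level of 4.87 in clone 12.2 against 3.69 to 4.32 elsewhere, and was 0.63 above clone 12 there. Ptprc and Cd3e were also highest there, at 2.72 and 3.14. The other measured markers, Cd68, Spi1, Adgre1, Itgam, Csf1r, Kit and Cd79a, were each highest on another array. The part of these markers in the result was not tested.

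**Figure D2:**
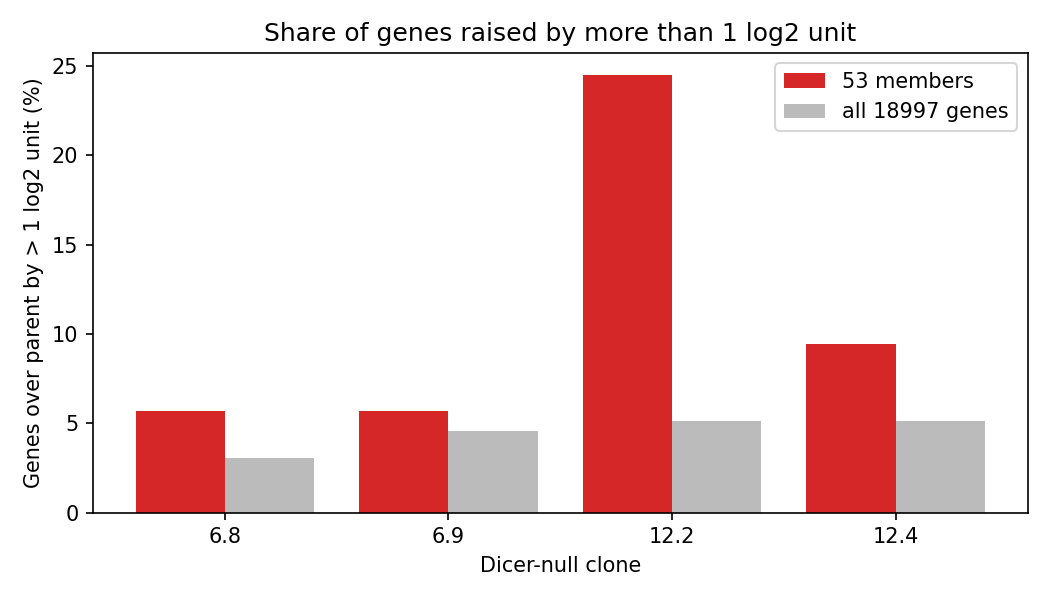
Percent of genes (vertical axis, from 0) more than 1 log2 unit above the own parent in each null clone, for the 53 genes (red) and all 18997 genes (grey). The red bar stands at 24.5% in clone 12.2, against 5.14% for all genes.

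Among CC ligands, Ccl2, the main monocyte attractant acting through Ccr2, had log2 levels of 4.92 and 3.68 in clones 6 and 12. It had 5.88 in clone 6.8, 4.91 in 6.9, 9.34 in 12.2 and 7.03 in 12.4. Against their parents this was 0.96 and -0.01 in the line 6 clones, and 5.66 and 3.35 in the line 12 clones. Ccl7, another monocyte attractant and the next coding gene on chromosome 11, had levels of 5.65 and 3.93 in clones 6 and 12, and of 6.25, 5.12, 9.46 and 7.09 in the null clones. For both genes the line 12 null clones stood above the other 4 arrays and clone 12 was the lowest array. The line 12 minus line 6 difference in change was 4.03 ± 1.62 (SE) for Ccl2 and 4.31 ± 1.70 (SE) for Ccl7, with unadjusted p of 0.0733 and 0.0703 in limma, and 0.9997 for each after adjustment. Part of each difference lies in the parents, where clone 6 was above clone 12. Averaged over the lines, the change was 2.49 ± 1.16 (SE) for Ccl2 and 2.19 ± 1.23 (SE) for Ccl7, with adjusted p of 0.465 and 0.569 in limma. Without clone 12, which leaves the line 6 clones, the changes were 0.48 for Ccl2 and 0.03 for Ccl7.

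Ccl5, a ligand of Ccr1 and Ccr3 that attracts T cells and monocytes, had log2 levels of 6.63 and 5.42 in clones 6 and 12. It had 7.43 in clone 6.8, 5.58 in 6.9, 9.07 in 12.2 and 5.77 in 12.4. Its levels in clones 6.9 and 12.4 lay between those of the parents, and the groups overlapped. The change of Ccl5 was 0.94 ± 1.17 (SE), with an adjusted p of 0.861 in limma. Ccl4, a CC ligand made by activated macrophages, was below 3.4 on every array, with a difference of 0.92 in clone 12.2 and of at most 0.12 in the other null clones. The other low CC ligands, 11 in all with Ccl4, stayed between 2.39 and 3.80 on the log2 scale, with fitted changes from -0.23 to 0.27. Ccl25, the gut-homing ligand of Ccr9, was named after its values were seen. It reached 4.70 in clone 12.2 and was 3.38 to 4.01 elsewhere.

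Among CXC ligands, Cxcl5, a neutrophil attractant of Cxcr2, separated the lines. It had log2 levels of 3.11, 2.98 and 3.05 in clones 6, 6.8 and 6.9, and of 5.11, 9.85 and 7.66 in clones 12, 12.2 and 12.4. The line 6 arrays thus stayed together near 3, and the line 12 arrays were all higher, parent included. The line difference in change was 3.74 ± 1.42 (SE), with a limma p of 0.0637 before adjustment and 0.9997 after it. The average change of Cxcl5 was 1.78 ± 1.06 (SE), with an adjusted p of 0.595 in limma.

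Cxcl10, an interferon-inducible attractant of T cells through Cxcr3, had log2 levels of 5.45 and 4.41 in clones 6 and 12. It had 7.32 in clone 6.8, 5.57 in 6.9, 10.2 in 12.2 and 4.94 in 12.4. It was higher than the own parent in every null clone, but by 0.12 and 0.53 in clones 6.9 and 12.4 and by 1.87 and 5.80 in clones 6.8 and 12.2. The mean change of Cxcl10 was 2.08 ± 1.64 (SE), with an adjusted p of 0.727 in limma. Cxcl11, the third Cxcr3 ligand after Cxcl9 and Cxcl10, was 6.94 in clone 12.2 and 2.65 to 2.87 on the other 5 arrays. The gene table of the C57BL/6J assembly lists Cxcl11 as a transcribed pseudogene, and the strain of these cells was not known here. Cxcl9, the remaining Cxcr3 ligand, reached at most 3.25 on any array.

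Cxcl16, a membrane-bound ligand of Cxcr6, had log2 levels of 3.88 and 3.91 in the parents, 4.01 and 3.53 in clones 6.8 and 6.9, 6.31 in clone 12.2 and 4.56 in 12.4. Cx3cl1, the membrane-anchored fractalkine, had 7.79 and 6.83 in clones 6 and 12, 7.87 in 6.8, 8.14 in 6.9, 9.60 in 12.2 and 6.52 in 12.4. Both were highest in clone 12.2, and for Cx3cl1 the sibling 12.4 was the lowest array. Their changes were 0.71 ± 0.64 and 0.72 ± 0.90 (SE), with adjusted p of 0.778 and 0.861 in limma. Cxcl14, a tissue-resident chemokine of skin and stroma, ran the other way. It had 5.91 and 4.82 in clones 6 and 12, 4.69 in 6.8, 5.29 in 6.9, 3.20 in 12.2 and 5.65 in 12.4. Clone 12.2 was thus the lowest array for Cxcl14, and its change was -0.66 ± 0.72 (SE) with an adjusted p of 0.832 in limma. The 5 low CXC ligands, Cxcl2, Cxcl9, Cxcl13, Cxcl15 and Cxcl17, stayed between 2.51 and 3.77 with fitted changes from -0.08 to 0.19.

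All 9 genes that reached a log2 level of 6 on any array were ligands: Ccl2, Ccl5, Ccl7, Cx3cl1, Cxcl1, Cxcl5, Cxcl10, Cxcl11 and Cxcl16. Each was highest in clone 12.2 and at least 1 log2 unit above clone 12 there. Of all 6661 genes that reached 6 on any array, clone 12.2 was the highest for 20.2% and stood more than 1 log2 unit above clone 12 for 10.9%. That array itself brought Cxcl11 and Cxcl16 past 6, so the count is partly set by the choice, and 7 of the 9 reached 6 on another array too.

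**Figure D3:**
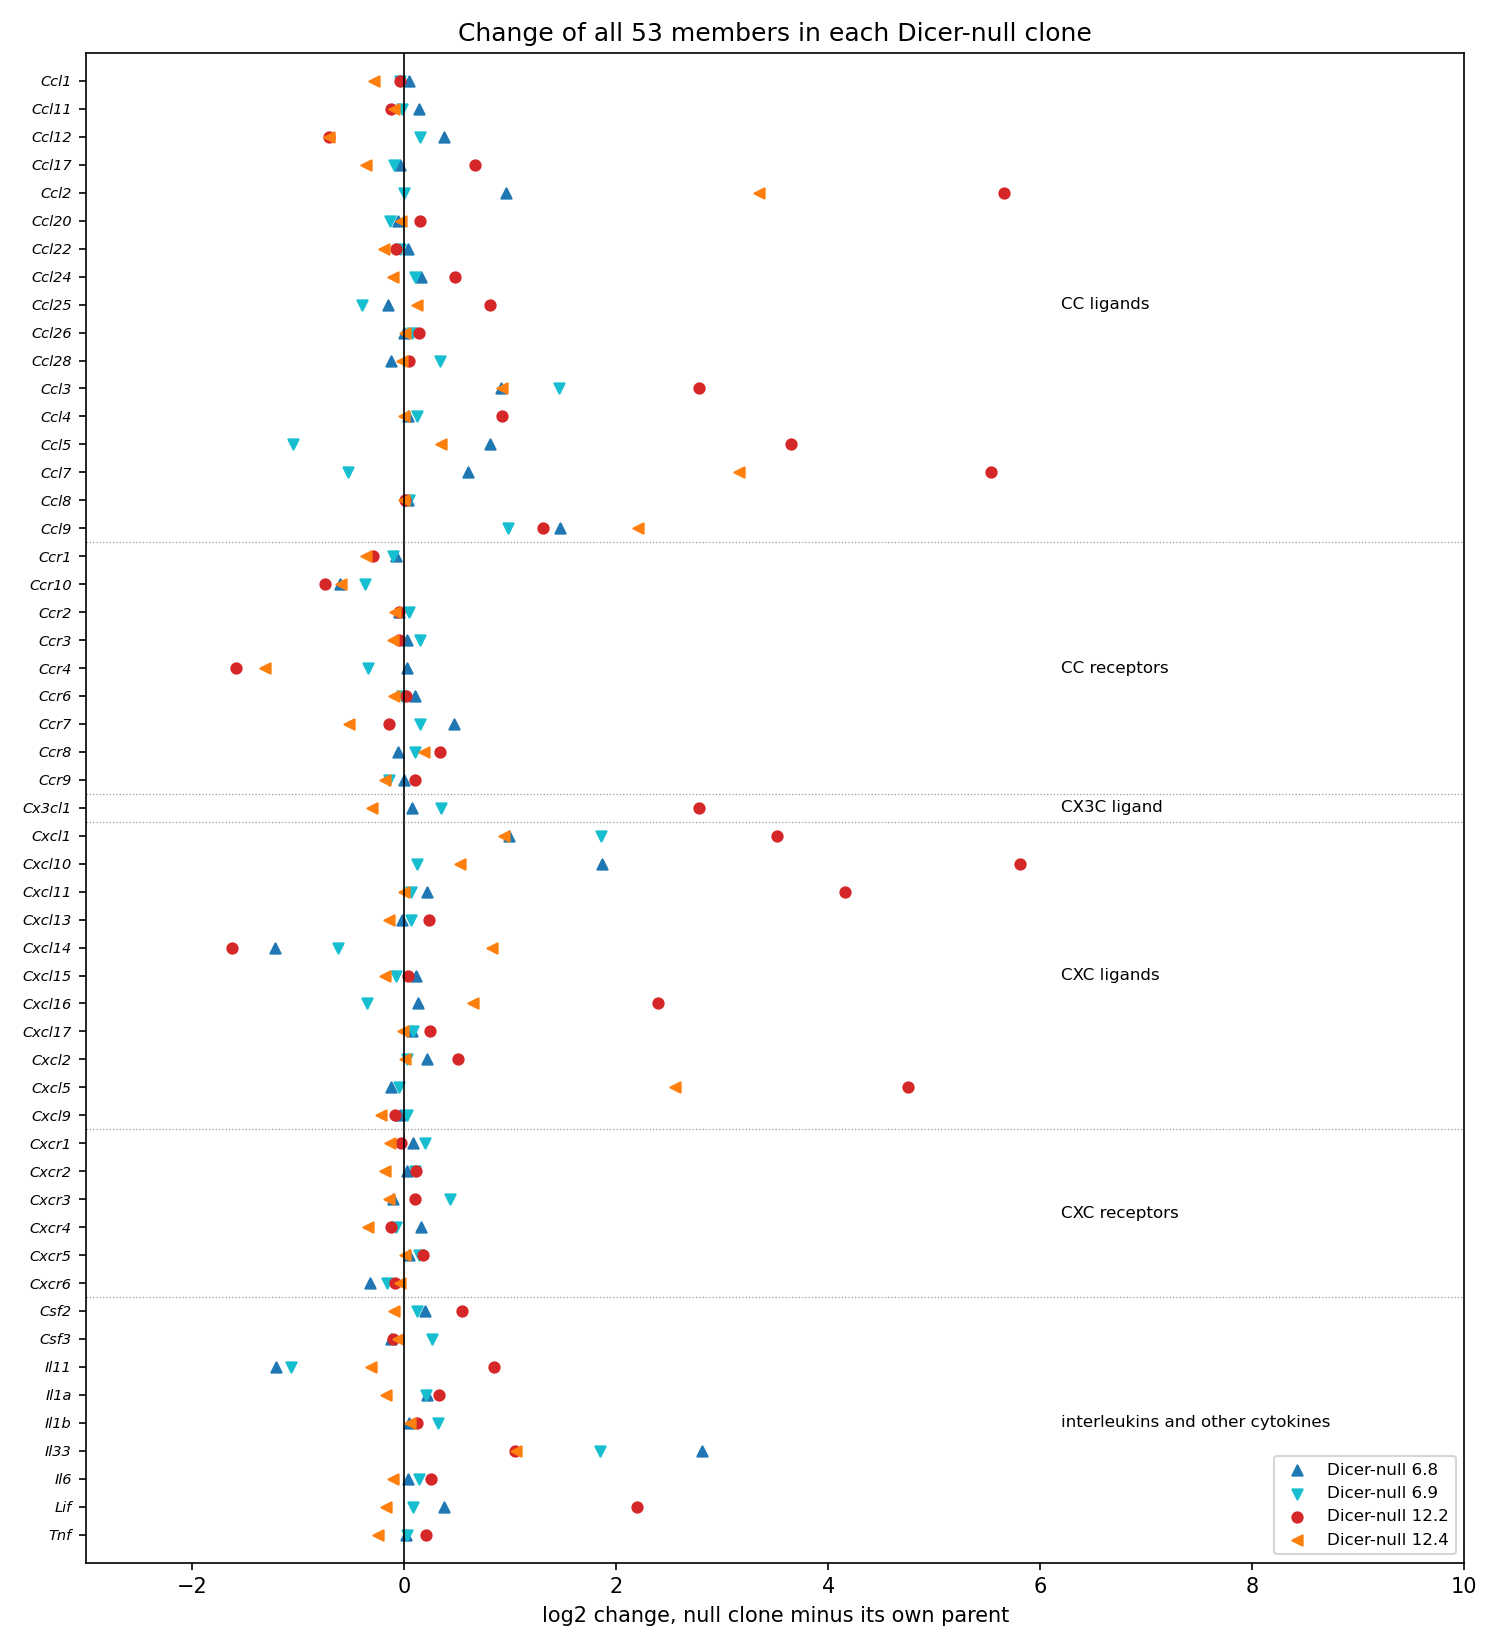
Log2 change (horizontal axis, null clone minus its own parent) of all 53 genes, with 1 point per null clone, grouped by family. Points of clone 12.2 extend to 5.80 for Cxcl10 among the ligands, while the points of receptors other than Ccr4 lie between -0.75 and 0.47.

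Neighbouring ligand genes did not all differ alike in clone 12.2. In the chromosome 11 run from Ccl2 to Ccl1, the first 2 genes, Ccl2 and Ccl7, were 5.66 and 5.53 log2 units above clone 12 in clone 12.2, and 3.35 and 3.16 above it in 12.4. The next coding genes in the run, Ccl11, Ccl12, Ccl8 and Ccl1, differed by -0.71 to 0.00 in clone 12.2 and were all under 4 on every array. Ccl12 was lower by 0.71 in both line 12 clones and higher by 0.37 and 0.15 in the line 6 clones, with a line difference of -0.97 ± 0.24 (SE) and a limma p of 0.0186 before adjustment and 0.9997 after it. In the second chromosome 11 run all the measured genes, Ccl5, Ccl9, Ccl3 and Ccl4, were above clone 12 in clone 12.2, by 3.65, 1.31, 2.78 and 0.92.

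On chromosome 5, Cxcl5 and Cxcl1 were 4.75 and 3.52 above clone 12 in clone 12.2. Cxcl15, between them, differed by 0.04, and Cxcl2, next to Cxcl1, by 0.50. Cxcl2, a neutrophil attractant like Cxcl1, stayed between 3.27 and 3.77 on all arrays, and the sequences above show GGGAATTTC before both start sites. On chromosome 8, Cx3cl1 was 2.78 higher in clone 12.2 while its neighbours Ccl22 and Ccl17, ligands of Ccr4, differed by -0.08 and 0.66. Of the 13 genes with an NF-kB-like match in their promoter, 3 were more than 1 log2 unit above the parent in any null clone, namely Ccl9, Cxcl1 and Cxcl10. Of the 25 with a promoter in the table and no match to the searched letters, 4 were, namely Ccl3, Cx3cl1, Il33 and Lif. The other 6 genes past 1 log2 unit had no promoter in the table used.

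**Figure D4:**
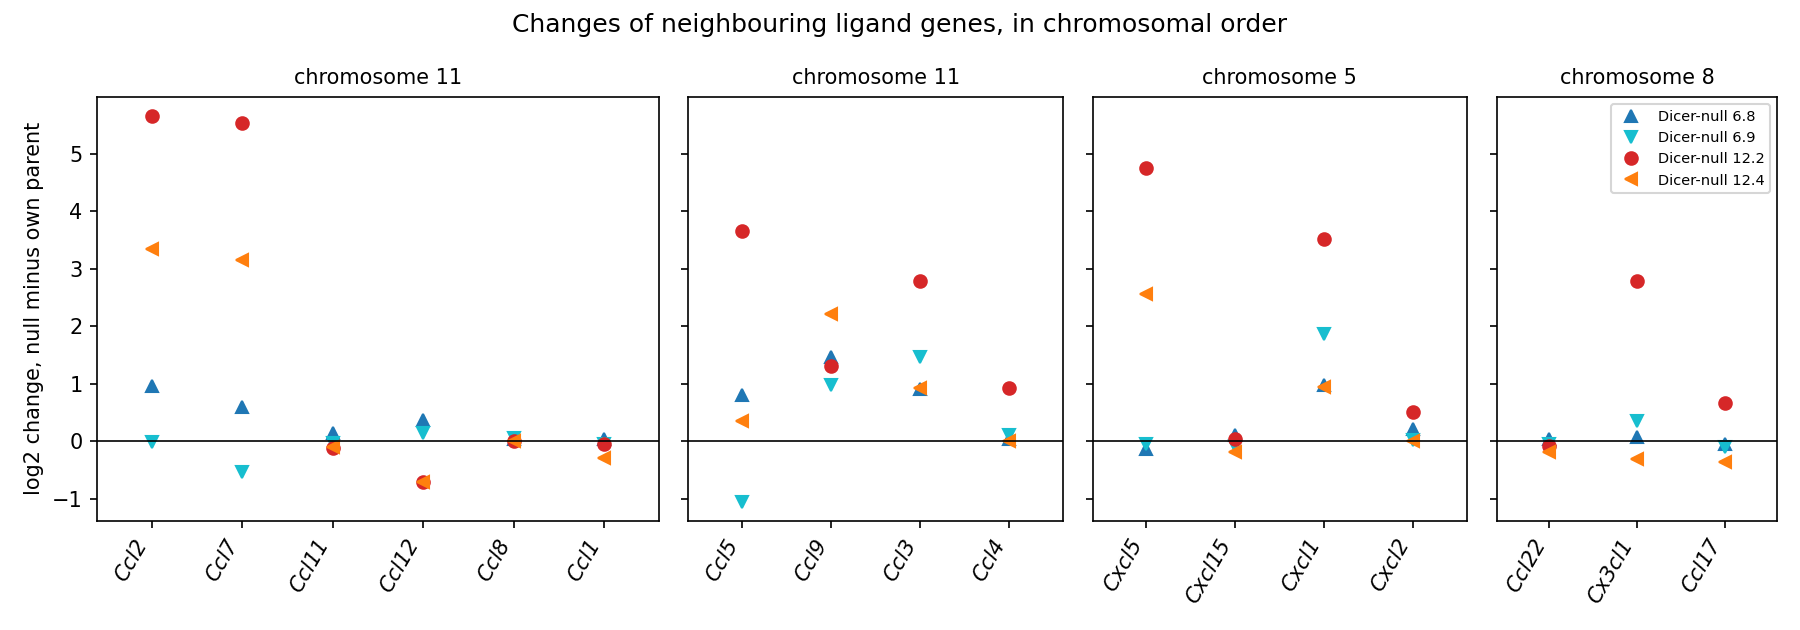
Log2 change (vertical axis, null clone minus its own parent) of ligand genes in their chromosomal order, with 1 panel per run of neighbouring genes and 1 point per null clone. Ccl2 and Ccl7 stand at 5.66 and 5.53 in clone 12.2 beside Ccl11 at -0.12, and Cxcl1 at 3.52 beside Cxcl2 at 0.50.

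The chemokine receptors were low. Of the 15 receptors, 14 stayed under a log2 level of 4 on all arrays, and the values of all 15 lay between 2.30 and 4.30. Without detection calls these levels do not show absence. Ccr10, the receptor for Ccl27 and Ccl28, had log2 levels of 3.75 and 3.55 in clones 6 and 12, and 3.14, 3.37, 2.80 and 2.96 in the null clones. The null arrays of Ccr10 all lay below both parents, with a change of -0.58 ± 0.12 (SE). In limma its adjusted p was 0.147. Ccr4, the receptor of Ccl17 and Ccl22, had 4.30 in clone 12 and 2.71 to 3.12 on the other 5 arrays, so its change of -0.80 ± 0.33 (SE) rests on 1 parental array. Without clone 12 the change of Ccr4 was -0.16 and without clone 6 it was -1.45. Ccr4 had 4 transcript clusters, of which the brightest was used, and their mean gave -0.24. Its adjusted p was 0.401 in limma, and its line difference was -1.29 ± 0.35 (SE) with a limma p of 0.0251 before adjustment and 0.9997 after it. Among CXC receptors Cxcr6 had the largest size of change, -0.16 ± 0.11 (SE), with an adjusted p of 0.669 in limma. Cxcr2, the receptor of Cxcl1 and Cxcl5, stayed between 2.74 and 3.03, Ccr2, the receptor of Ccl2 and Ccl7, between 2.53 and 2.76, and Cxcr4, the receptor of Cxcl12, between 2.75 and 3.10.

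Interleukins and colony-stimulating factors were mostly low as well. Il6, Il1a, Il1b, Tnf, Csf2 and Csf3, the classical inflammatory cytokines of the list, stayed between 2.45 and 3.25 with fitted changes from -0.01 to 0.19. Lif, a member of the interleukin 6 family, had a log2 level of 4.98 in clone 12.2 and 2.62 to 3.26 on the other arrays, and its change was 0.62 ± 0.70 (SE). In limma its adjusted p was 0.841. Il11, a stromal cytokine of the same family, was chosen after its values were seen. It had 4.02 and 3.16 in clones 6 and 12, 2.81 and 2.95 in clones 6.8 and 6.9, 4.00 in 12.2 and 2.84 in 12.4. Both line 6 null clones lay below their parent by more than 1 log2 unit, and in line 12 the siblings differed in sign.

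The line comparison called 0 of the 53 genes in limma at an adjusted p of 0.05, as it called 0% of all genes. At an unadjusted p under 0.05 there were 2, Ccl12 and Ccr4, or 3.77% against 3% of all genes. Each line had a single parental array in that contrast, with 2 degrees of freedom for the residual, and a count of 0 there is no sign that the lines respond alike.

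Related genes were taken from lists of other receptors, ligands and regulators. Of 28 measured ligand partners and other receptors, 0 passed in either direction in limma and 5 had an unadjusted p under 0.05, or 17.9% against 13.7% of all genes, with a median change of 0.01. Those 5, given after their values were seen, were Ackr4, Csf1, Il1r1, Tnfrsf1b and Sdc1. Ackr4, a scavenging receptor that removes CC chemokines, differed by -1.07 ± 0.14 (SE) at an adjusted p of 0.0687 in limma. Il1rn, the interleukin 1 receptor antagonist, had the change of greatest size in that list and was likewise picked out after its values were seen. It had log2 levels of 8.28 and 6.58 in clones 6 and 12, 4.15 in 6.8, 3.85 in 6.9, 4.23 in 12.2 and 6.95 in 12.4. Clone 12.4 thus lay above its parent and the other null clones below theirs, and the change of Il1rn was -2.64 ± 1.08 (SE) with an adjusted p of 0.394 in limma. Cxcl12, the stem cell retention factor, had log2 levels of 9.56 and 8.29 in clones 6 and 12, and of 9.86, 10.6, 7.63 and 11.5 in the null clones. Clone 12.2 was the lowest array for Cxcl12 and its sibling 12.4 the highest, and the change was 0.96 ± 1.11 (SE) with an adjusted p of 0.846 in limma. Of receptors with a mean level of at least 6, Tnfrsf1b, a receptor of tumour necrosis factor, was higher in all 4 null clones by 1.22 to 2.55, and its change was 1.66 ± 0.33 (SE). In limma its adjusted p was 0.132. Tnfrsf1a, the other such receptor, differed by -0.04 ± 0.16 (SE). Il6st, the shared chain of the interleukin 6 family, had 9.12 and 9.17 in clones 6 and 12, 9.23 and 8.90 in 6.8 and 6.9, and 10.2 and 10.2 in 12.2 and 12.4. Osmr, the oncostatin M receptor, differed by -0.03 and 0.23 in the line 6 clones and by 1.53 and 2.58 in the line 12 clones. Lifr, the receptor chain for Lif, differed by -0.58, -1.89 and -1.90 in clones 6.8, 6.9 and 12.2 and by 0.71 in 12.4. The changes of Il6st, Osmr and Lifr were 0.50 ± 0.28, 1.08 ± 0.55 and -0.91 ± 0.84 (SE). Their adjusted p in limma was 0.570, 0.510 and 0.782.

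Of 17 measured regulators of these transcripts and of their signalling, 1 rose and 0 fell in limma, where 0.163% and 0.426% of all genes did. Their median change was 0.32, against -0.02 over all genes. At an unadjusted p under 0.05 there were 2, Tnfaip3 and Irak1, or 11.8% against 13.7% of all genes. Irak1, given after its values were seen, was lower in all 4 null clones. Its change was -0.44 ± 0.13 (SE), with an adjusted p of 0.258 in limma. The 1 that rose was Tnfaip3, the feedback inhibitor of NF-kB. Tnfaip3 had log2 levels of 5.16 and 5.18 in clones 6 and 12, and of 6.67, 6.78, 7.06 and 6.80 in the null clones. Its null arrays spanned 0.39 log2 units, while those of Cxcl1 spanned 2.65 and those of Ccl2 4.42. Tnfaip3 was named for passing in limma, where a small spread helps a gene pass. The contrast in spread is thus partly set by the choice. The change of Tnfaip3 was 1.66 ± 0.12 (SE), with an adjusted p of 0.0305 in limma. It missed the threshold when any 1 array was left out, at an adjusted limma p of 0.0712 to 0.277. Averaging sibling clones first gave 0.0704.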

How the data were processed

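Total RNA of 6 clones was labelled with biotin by a whole-transcript sense target protocol and hybridised to Affymetrix arrays, per the labels' protocols. The deposited table holds log2 values of 44343 transcript clusters, made with Partek 6.5 and RMA, per the submitters' processing notes. RMA equalises arrays, so a change in total RNA would not be seen, and no depth applies: the number of arrays limits the precision. The build of the array values was not known here, so gene order came from GRCm38.p6 names alone.

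Of the clusters, 22781 had 1 gene, 2085 several and 19477 none in the platform annotation. Symbols were updated by Entrez identifier (22485 matched), and the brightest single-gene cluster over the 6 arrays stood for each of 18997 genes. Of the 53 genes 3 had several clusters. limma 3.58.1 in R 4.3.3 fitted parental line and Dicer loss (3 residual degrees of freedom), or 4 cell means for the line difference, with Benjamini-Hochberg adjustment over all genes. No label describes repeat cultures of a clone, and p-values reflect only how far these clones spread. Clone numbers tie null clones to parents. The line 12 minus line 6 differences of parents and null clones correlated at 0.16 across 5409 genes with a mean above 6, which are not independent.

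The genes and lists were chosen with earlier results of these data known. Named genes were those past the threshold, those with a level of at least 6 on any array, those with an unadjusted p under 0.05 and the largest remaining change of each family. From the related lists these were genes past the threshold, Cxcl12 and receptors with a mean of at least 6. Alternatives were no block, a random block, sibling means, quantile normalisation, centring, a filter, cluster means, other moderation and leaving out each array.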

Additional observations from a re-analysis of the deposited data

Results flagged for a closer look

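For the 18 genes named by rule, the 4 null clones were compared with Dixon's criterion at 95%, and about 1 in 20 groups is picked out by chance alone. Cxcl11 stood apart, with a log2 level of 6.94 in clone 12.2. Clone 12.2 was also the only array where Cxcl11 reached the level of 6 used for naming. The outcome is thus partly set by the choice, and the rate of 1 in 20 does not hold for a gene named in this way.

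Cxcl5 had opposite signs in the lines. It was below its parent in both line 6 null clones, with differences of -0.13 and -0.05, and above it in both line 12 null clones. The change in line 12 minus that in line 6 was 3.74, and the opposition of signs was not tested across clones. The limma contrast of the lines gave Cxcl5 an adjusted p of 0.9997.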

How the results depend on the processing

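The count of called genes among the 53 was 0 in all 14 alternative fits, and the lowest adjusted p of any of them was 0.0815 in limma, for Ccl9 with trend and robust moderation. The line difference also called 0 of them in each alternative run, which left out no parental array because the contrast then cannot be fitted. Over all genes limma called 112, and 220 without the replicate block, 15 with the mean of sibling null clones, 233 with trend and robust moderation, and 0 to 17 when 1 array was left out. None of the 53 genes was called with or without the parental block, so there was no call for the block to alter. Their median change was 0.05, and 1.73 over the 10 genes left when those with a mean under 4 were dropped, since that filter keeps genes partly through the arrays where they are high. It was 0.13 with arrays centred on their medians, 0.01 to 0.12 with 1 array left out and 0.01 without clone 12.2.

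Without clone 12 its null clones have no reference, and the line 6 clones alone gave negative values for Ccl5, Cxcl16 and Cxcl5, as did Cx3cl1 without clone 12.2. With 1 array left out, Ccl5 ranged from -0.12 to 2.00, Cxcl16 from -0.11 to 1.52, Cxcl5 from -0.0905 to 3.65 and Cx3cl1 from -0.0111 to 1.31. Over all 14 alternatives the named genes with Cxcl12, Tnfaip3 and Tnfrsf1b gave 286 values, of which these 4 changed sign. Apart from Tnfaip3 none of these genes was past the threshold in any fit, so the fits hold no call of theirs to keep, and 7 values of Tnfaip3 missed it. The adjusted p of Tnfaip3 in limma was 0.0704 with the mean of sibling null clones and 0.0712 to 0.277 with any 1 array left out, at changes of 1.56 to 1.75. Ccl9 ranged from 1.22 to 1.76, Il33 from 1.05 to 2.33 and Cxcl1 from 1.22 to 2.32, while Ccl2 ranged from 0.48 without clone 12 to 4.50 without clone 6, and Ccl7 from 0.03 to 4.34 without the same arrays. Cxcl10 ranged from 0.79 without clone 12.2 to 3.17 without clone 6, Cxcl11 from 0.08 to 2.07 without the same arrays, and Ccr4 from -1.45 to -0.16. Without clone 12.2 and without clone 12.4, Lif was 0.06 and 1.07, Cxcl14 -0.17 and -1.23, and Cxcl12 1.74 and 0.10. Ccl4 was 0.04 without clone 12.2. Signal near the array floor limits what can be read for the genes under a log2 level of 4.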
